A study of Canis lupus familiaris with 222 samples.

Results

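Benign mammary tumors of 13 female dogs were compared with normal mammary tissue taken beside the tumor from the same dog. The dogs were all those with an RNA-seq library of both tissues and a benign diagnosis, and they gave 26 of the 222 libraries of the series and 13 of its 64 pairs. The diagnoses were simple adenoma in 7 dogs, complex adenoma in 4 dogs and benign mixed tumor in 2 dogs. The labels gave Maltese for 8 dogs, Shih Tzu for 3, Chihuahua for 1 and Mixed for 1, and ages of 6 to 13 years with a median of 10. Of the 13 dogs, 9 were intact and 4 were neutered (CMT-017, CMT-074, CMT-232 and CMT-776). Surgery took place in 2016 for 5 dogs, in 2017 for 6 and in 2018 for 2. The tumors arose spontaneously in client-owned dogs, so no treatment or engineered allele separates the groups. The other libraries used for comparison were 48 pairs with a malignant tumor and 22 benign tumors without own normal tissue. The malignant pairs comprised 20 simple carcinomas, 19 complex carcinomas, 6 carcinomas in benign mixed tumor, 2 carcinosarcomas and 1 osteosarcoma, from 31 intact and 17 neutered dogs aged 2 to 19 years (median 12.5). Of these dogs, 15 were Maltese, and surgery took place in 2016 for 6, in 2017 for 33 and in 2018 for 9. The 22 benign tumors were simple adenomas, complex adenomas or benign mixed tumors. They came from 21 intact dogs and 1 neutered dog, aged 7 to 16 years (median 11, with no age for 2 dogs). Of these dogs, 6 were Maltese, and surgery took place in 2016 for 5, in 2017 for 15 and in 2018 for 2. Another 3 pairs were benign in the sample labels but malignant in the study's clinical table, and these were kept apart.

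The mammary gland consists of a luminal epithelium that can secrete milk, an outer layer of contractile myoepithelium, and a stroma of fat, fibroblasts and vessels. A simple adenoma grows from a single epithelial lineage, a complex adenoma contains both luminal and myoepithelial cells, and a benign mixed tumor contains cartilage or bone in addition. Intact dogs go through estrous cycles with a long luteal phase, during which the gland proliferates and may secrete, whereas the gland of a neutered dog no longer receives ovarian hormones. In bulk tissue, fewer cells of a type and less RNA per cell cannot be told apart.

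Expression was measured as FPKM, which relates the fragments of a gene to its length and to library size. Differences are given as log2(FPKM + 1) of the tumor minus that of the normal tissue of the same dog, so a difference of 1 is a doubling for well expressed genes, and the change of weakly expressed genes is understated. The table lists Ensembl gene identifiers, and no table used here pairs them with gene names. Pathways and cell types could therefore not be described, and the tissue labels could not be checked against marker genes. Tumor libraries had 12145 to 13263 identifiers at 1 FPKM or more, and normal libraries 11887 to 13050, with the tumor above its own normal tissue in 7 of 13 dogs. The read mapping rate was higher in the tumor library in 11 of 13 dogs. No libraries were identical, and the closest pair of libraries was the tumor and the normal tissue of CMT-480, with a correlation of 0.966 over 14595 identifiers. This tumor library also had levels near those of normal tissue for transcripts that other tumors had lost, and how much normal tissue the specimen held was not tested. Without CMT-480 the log2 differences of the 4 identifiers named were 4.00 and 3.25 for ENSCAFG00000007857 and ENSCAFG00000011534, and −5.85 and −5.63 for ENSCAFG00000005235 and ENSCAFG00000023806.

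Benign tumors had both gains and losses relative to their own normal tissue, and losses were more frequent and larger. Of 14595 identifiers tested, 482 were called, which is 3.3% of those tested. Of these, 138 (0.946%) were higher and the rest (2.36%) were lower in the tumor. A call required a Benjamini-Hochberg adjusted p under 0.05 in limma and, in addition, an absolute log2 difference of 1 or more. The median log2 difference was 1.32 among the higher and −1.58 among the lower identifiers. An absolute difference of 3 or more on the log2 scale was found for 6 higher and 48 lower identifiers. Over all identifiers tested, the median absolute difference was 0.200. With the adjusted p alone, 1411 identifiers (9.67%) passed, and 4201 (28.8%) had an unadjusted p under 0.05.

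The calls were not carried by every dog. A median of 11 of 13 dogs had the direction of the call in both lists, and the fewest was 9. All 13 dogs had the direction of the call for 9 of the higher and 27 of the lower identifiers called. Among all identifiers tested, 36 were higher and 116 were lower in the tumor of every dog, with median log2 differences of 0.69 and −0.63, and 9 and 27 of them were called. The adjusted p alone was under 0.05 for 34 and 60 of them. In none of the 14595 identifiers (0%) did the 13 tumors and the 13 normal tissues have ranges that did not overlap.

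The lost transcripts took a larger part of the normal transcriptome than the gained transcripts took of the tumor transcriptome. The identifiers called lower held 1.68% to 17.3% of the summed FPKM of normal tissues, with a median of 4.02%, and 0.437% to 2.27% of that of tumors, with a median of 1.05%. The 138 called higher held 0.0887% to 1.49% in normal tissues, with a median of 0.329%, and 0.538% to 1.89% in tumors, with a median of 1.48%. The share of the higher identifiers was larger in the tumor in 13 of 13 dogs, and that of the lower identifiers in 1 of 13. These shares describe identifiers that were chosen for the difference.

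Among called identifiers that had the same direction in at least 12 dogs and a mean of at least 5 FPKM in the higher tissue, ENSCAFG00000007857 had the largest gain. Its level in normal tissue ranged from 0 through a median of 3.65 to 54.7 FPKM, and in tumors from 3.05 through a median of 128.1 to 214.9 FPKM. In 10 of 13 tumors it exceeded the highest normal tissue, which was that of CMT-017. The 3 tumors below that level were those of CMT-074 (31.9 FPKM, with its own normal tissue listed at 0), CMT-232 (3.68 against 2.01 FPKM) and CMT-480 (3.05 against 3.61 FPKM). The mean log2 difference was 3.68 ± 0.49 (SE, n = 13; limma adjusted p = 0.0126), and the tumor was higher in 12 of 13 dogs.

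The second gained identifier, ENSCAFG00000011534, was nearly absent from normal tissue. Normal tissues ranged from 0.0201 through a median of 0.138 to 0.655 FPKM, and tumors from 0.572 through a median of 10.5 to 59.5 FPKM. The tumors of CMT-162 and CMT-355 were the highest, at 59.5 and 48.1 FPKM. In 12 of 13 tumors the level was above every normal tissue, and the remaining tumor, CMT-074, was above its own normal tissue, at 0.572 against 0.0449 FPKM. The mean log2 difference was 3.01 ± 0.44 (SE, n = 13; limma adjusted p = 0.0126), and the tumor was higher in 13 of 13 dogs.

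**Figure D1:**
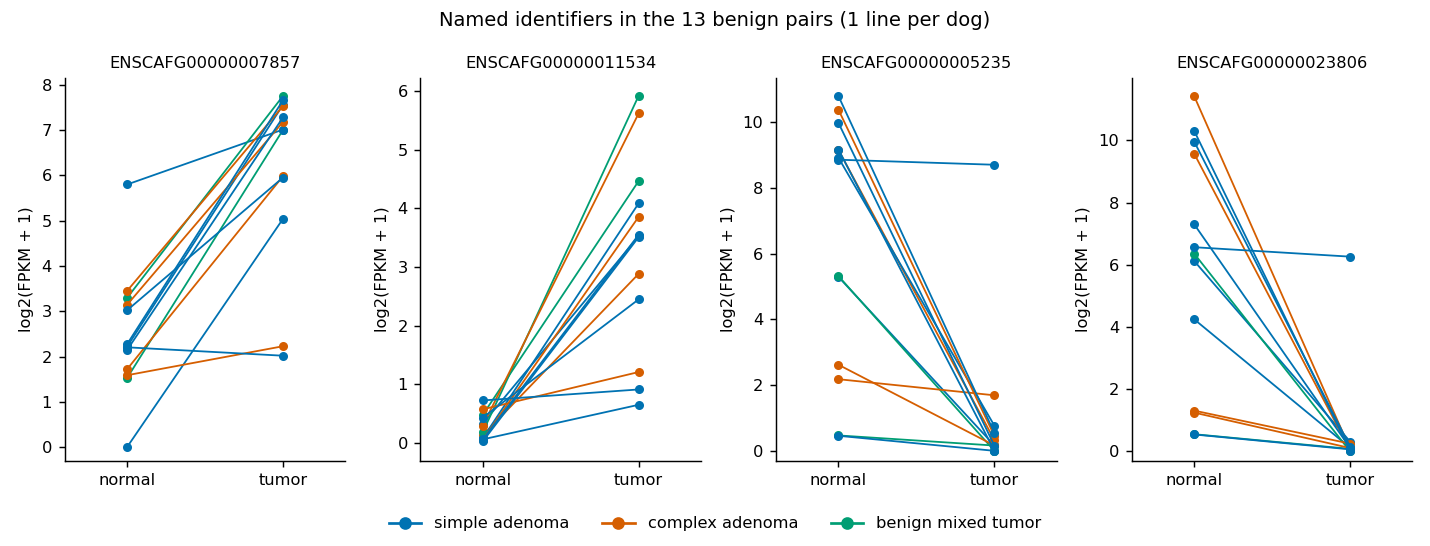
Levels of the 4 named identifiers, as log2(FPKM + 1), in normal tissue and tumor of the 13 dogs, with 1 line per dog colored by diagnosis and a separate vertical scale in each panel. Normal tissues of the 2 gained identifiers on the left lie low and tumors spread upward, whereas for the 2 lost identifiers on the right the normal tissues spread widely and 12 of 13 tumors lie near 0, the exception being the library labelled tumor of CMT-480.

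The 2 named losses had another shape, with widely spread normal tissues and almost uniformly low tumors. ENSCAFG00000005235 ranged in normal tissue from 0.373 through a median of 461.8 to 1766 FPKM. In tumors it ranged from 0 through a median of 0.121 to 415.1 FPKM, and without the tumor of CMT-480 the highest tumor had 2.22 FPKM. The normal tissues of CMT-008, CMT-017, CMT-232 and CMT-355 had 0.384, 0.373, 5.14 and 3.53 FPKM, so these dogs had little of this transcript to lose, whereas 7 others had 461.8 to 1766 FPKM. The mean log2 difference was −5.42 ± 1.05 (SE, n = 13; limma adjusted p = 0.0193), with the tumor lower in 13 of 13 dogs and single dogs between −0.15 and −10.24.

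ENSCAFG00000023806 had the same outline. Normal tissues ranged from 0.457 through a median of 81.0 to 2737 FPKM, and tumors from 0 through a median of 0.0772 to 75.6 FPKM. The level in 12 of 13 tumors was below every normal tissue, and the exception was again CMT-480, with 75.6 FPKM in the tumor and 93.6 FPKM in its normal tissue. The normal tissues of CMT-008, CMT-017, CMT-232 and CMT-355 had only 0.466, 0.457, 1.48 and 1.37 FPKM, so these dogs again had little to lose. The mean log2 difference was −5.22 ± 1.06 (SE, n = 13; limma adjusted p = 0.0198), and the tumor was lower in 13 of 13 dogs.

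A larger spread in normal tissue than in tumors held for most of the lost identifiers, but uniformly low tumors did not. Between dogs, the SD of log2(FPKM + 1) was larger among the 13 normal tissues than among the 13 tumors for 313 of the lower identifiers called (90.99%), with a median SD of 1.43 in normal tissue and 0.88 in tumors. Over all identifiers tested, the SD was larger in normal tissue for 56.4%, with medians of 0.45 in normal tissue and 0.42 in tumors. The lower identifiers thus varied more between tumors than identifiers in general, with 0.88 against 0.42. For the 138 higher identifiers it was larger in normal tissue for 34.1%, with medians of 0.85 in normal tissue and 0.99 in tumors. Since low values leave little room for spread on this scale, part of this follows from the direction of the call. In the 48 malignant pairs, which share no dog with the benign pairs, the SD of the same lower identifiers was larger in normal tissue for 305 (88.7%), with medians of 1.54 in normal tissue and 1.15 in tumors, against 61.2% of all identifiers. For the 138 higher identifiers it was larger in normal tissue for 14 (10.1%) there, with medians of 0.93 in normal tissue and 1.39 in tumors. In both directions the SD was mostly larger in the tissue with the higher level.

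**Figure D2:**
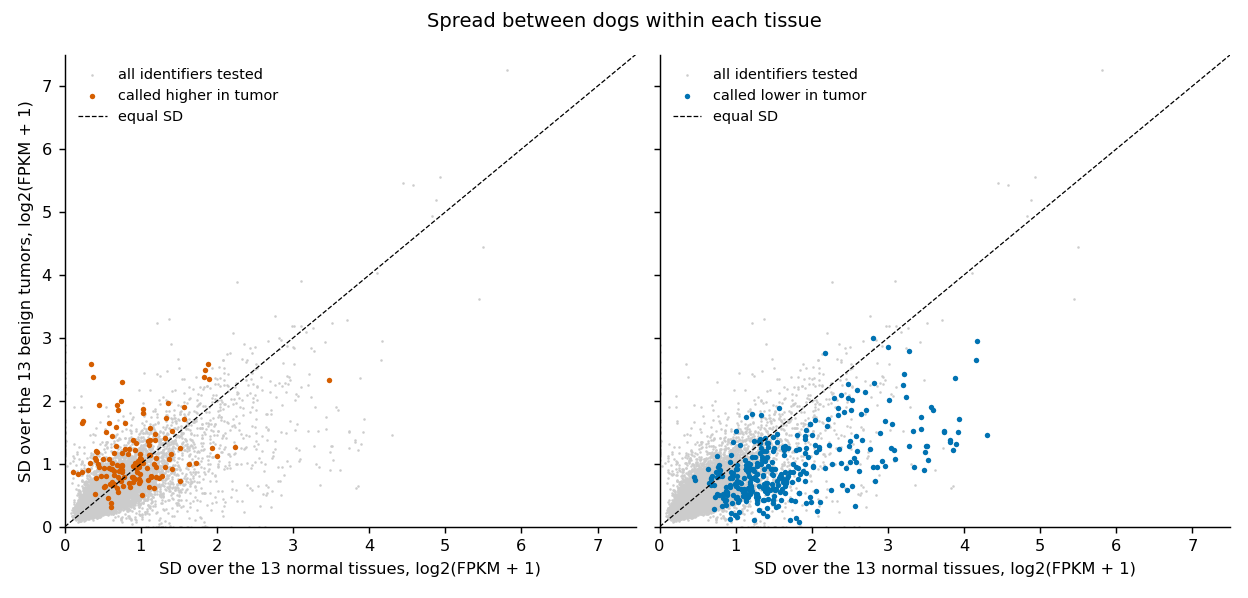
SD between dogs of log2(FPKM + 1) among the 13 normal tissues (horizontal) and among the 13 benign tumors (vertical), 1 point per identifier, with the dashed line at equal SD. Identifiers called lower in the tumor (right panel) lie mostly under the line, 313 (90.99%) of them, whereas those called higher (left panel) lie on both sides.

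To describe single dogs without choosing identifiers on them, the lists were taken from the 48 malignant pairs, in which 811 of 14725 identifiers (5.51%) were called. Of these, 548 (3.72%) were lower in the tumor, and the rest (1.79%), termed the gain list here, were higher. The median difference over the gain list was above 0 in 11 of 13 benign pairs and ranged from −0.35 to 2.54, with a median of 1.17. Over the 548 identifiers, the loss list, it was below 0 in 12 of 13 pairs and ranged from −2.99 to 0.17, with a median of −1.25. In CMT-776, 93.2% of the gain list were higher and 96.2% of the loss list were lower in the tumor. In CMT-017 the corresponding shares were 39.2% and 50.5%, in CMT-232 they were 40.3% and 77.9%, and in CMT-480 they were 58.9% and 38.5%, so in each of these 3 dogs only a minority of 1 of the lists had the direction found in malignant tumors.

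The size of the loss went with the level in normal tissue, which is itself a term of the difference. The median level of the loss list in normal tissue ranged from 0.54 in CMT-017 to 5.08 in CMT-776, on the log2(FPKM + 1) scale. The normal tissues of CMT-776, CMT-719, CMT-417, CMT-272 and CMT-091 had the highest levels, at 5.08, 4.74, 4.73, 4.64 and 3.88. These dogs also had the largest losses, at −2.86, −2.39, −2.99, −1.89 and −1.95. Tumor levels lay closer together, from 0.52 to 2.26 in 12 dogs, and the library labelled tumor of CMT-480 stood apart at 3.68, against 3.67 in its own normal tissue. In the gain list, CMT-719, CMT-091 and CMT-272 had the lowest normal levels (1.28, 1.62 and 1.75), and tumors ranged from 2.76 to 4.44.

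**Figure D3:**
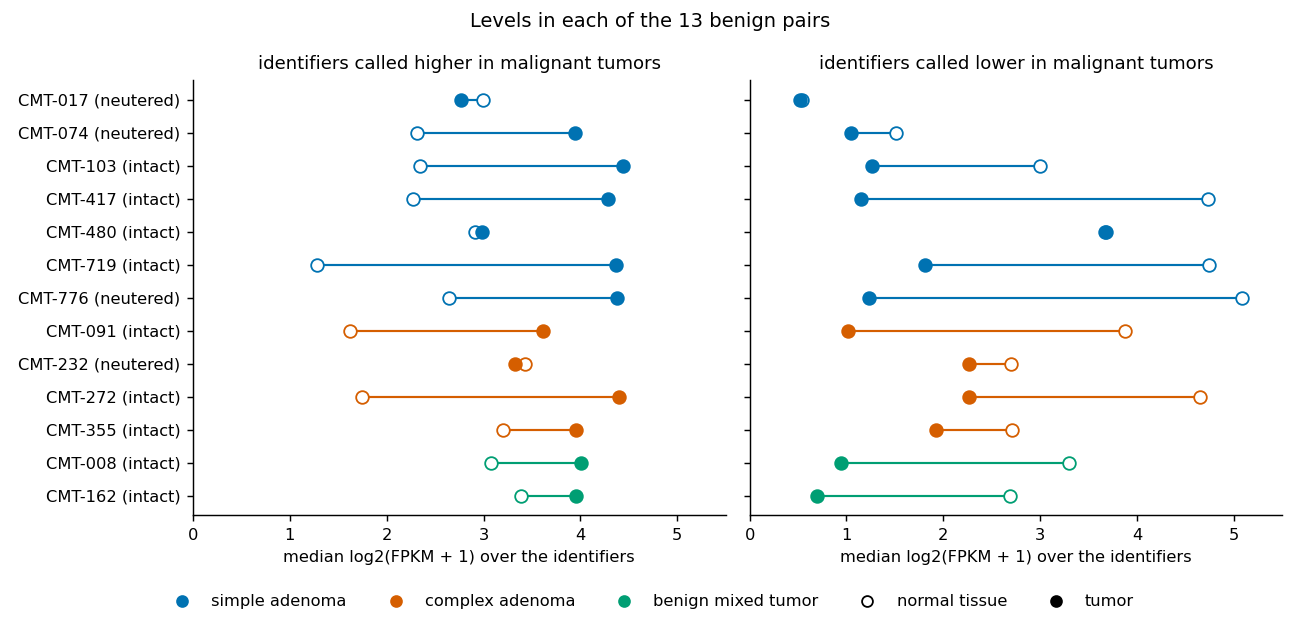
Median log2(FPKM + 1) in normal tissue (open circles) and tumor (filled circles) of each of the 13 benign pairs, for the gain list (left) and the loss list (right) from the tumors of 48 other dogs with malignant disease. Tumors lie right of normal tissue for the gain list in 11 dogs and left of it for the loss list in 12 dogs, narrowly so in CMT-017, and normal tissues spread from 0.54 to 5.08 in the loss list.

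Over the whole transcriptome, the number of identifiers with a paired difference of at least 1 in either direction ranged from 420 in CMT-232 and 463 in CMT-480 to 3525 in CMT-719, of 14720 identifiers. CMT-017, whose tumor and normal tissue had low levels of the loss list, still differed in 3211 identifiers. Among the 7 simple adenomas this number ranged from 463 to 3525 and among the 4 complex adenomas from 420 to 3411, so the diagnosis did not separate dogs with small and large differences. The benign mixed tumors of CMT-008 and CMT-162 had 3170 and 1739 such identifiers.

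A tumor did not always resemble the normal tissue of its own dog most. The correlation over identifiers of a tumor with its own normal tissue ranged from 0.776 in CMT-272 to 0.966 in CMT-480, with a median of 0.863. It was higher than that with any of the other 12 normal tissues in 5 of 13 dogs (CMT-017, CMT-162, CMT-232, CMT-355 and CMT-480). In 8 of 13 dogs it was above the median of the correlations with the other normal tissues. For CMT-272 the closest other normal tissue had a correlation of 0.896, and for CMT-719 it had 0.924 against 0.781 with its own.

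The number of calls depended on a few dogs. Leaving out CMT-272, CMT-776, CMT-417, CMT-719 or CMT-091 lowered the share of identifiers called from 3.3% to 0.729%, 0.857%, 0.925%, 0.933% and 1.16%, and leaving out CMT-103 gave 2.12%. These first 5 dogs were those with the largest losses over the loss list. Leaving out CMT-017, CMT-232, CMT-355 or CMT-480 raised it to 4.56%, 4.08%, 3.84% and 3.77%, or 665, 594, 561 and 550 calls. The sign of the mean difference was the same for all 482 identifiers whichever of the 13 dogs was left out, and the 4 named identifiers were called each time. Since these identifiers were chosen on the same dogs, a kept sign was close to fixed in advance. Without CMT-272, 104 of the 482 were still called.

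**Figure D4:**
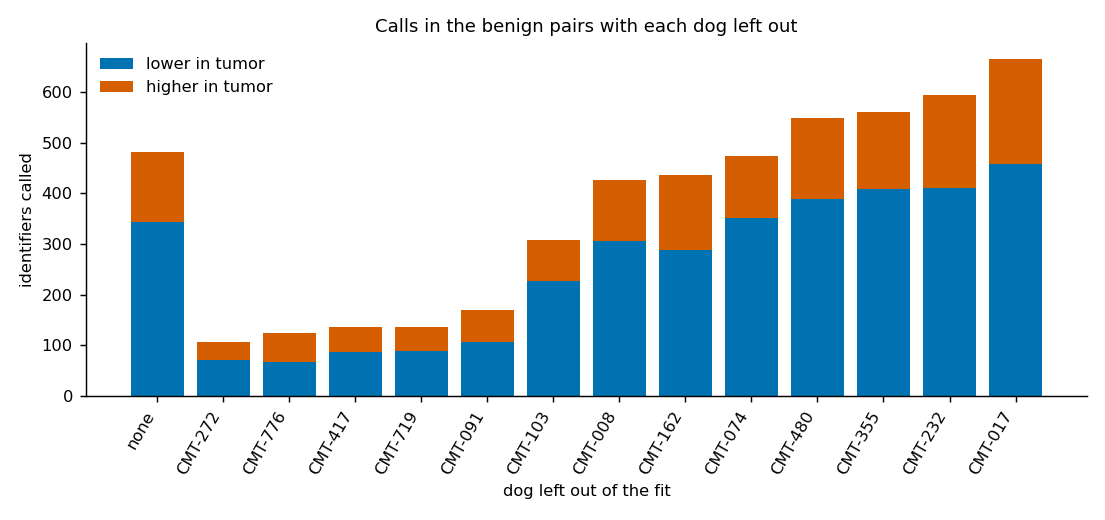
Number of identifiers called lower (blue) and higher (orange) in benign tumors with all 13 dogs and with each dog left out, in order of the total. The total falls from 482 to under 200 without each of 5 dogs and rises to 665 without CMT-017.

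The mapping rate moved with tissue in 11 of 13 dogs. With the mapping rate of each library as a covariate in limma, 0 identifiers were called and 1357 had an unadjusted p under 0.05. The direction was the same in 482 of the 482 identifiers, their median absolute difference was 1.25 instead of 1.49, and the median SE was 0.51 instead of 0.37. In the 48 malignant pairs, the same covariate, chosen after the data had been seen, left 831 calls where 811 were found without it. CMT-232 and CMT-719, the dogs with the lower mapping rate in the tumor, had the fewest and the most identifiers with a difference of at least 1 (420 and 3525). Within a surgery year there was 1 call among the 5 dogs of 2016 and 0 among the 6 dogs of 2017 (limma), with 1282 and 1804 identifiers at an unadjusted p under 0.05.

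Within years, the 4 named identifiers kept their direction, with no adjusted p under 0.05 in 2016 or 2017 (limma), and the 2 dogs of 2018 were not fitted alone. They had been chosen for a shared direction in at least 12 of these 13 dogs, so the kept direction was close to fixed in advance. In the dogs of 2016, 2017 and 2018 the mean log2 difference of ENSCAFG00000007857 was 4.27, 3.07 and 4.03, and that of ENSCAFG00000011534 was 2.90, 3.19 and 2.75. For ENSCAFG00000005235 it was −4.57, −4.69 and −9.70, and for ENSCAFG00000023806 it was −4.08, −4.57 and −10.04. The mean losses of these last 2 identifiers were largest in 2018, where the normal tissues had 572.4 to 1766 FPKM of them. Single dogs of 2017 reached similar losses. For ENSCAFG00000023806, CMT-272 of 2017 had −11.34, against −10.28 and −9.81 in the 2 dogs of 2018.

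Dogs that were not used for the calls gave the same directions. In the 48 malignant pairs, 98 of the 138 higher identifiers were also called higher (71.0%, and 37.3% of those called higher there, against a background of 1.79%). Of the lower identifiers, 269 were also called lower (78.2%, and 49.1% of the 548 called there, against 3.72%). The sign of the mean difference was the same for 482 of 482, and none was called in the opposite direction. The share of all identifiers with the same sign was not computed, so this agreement has no background beside it. The median log2 difference of the higher and lower identifiers was 1.18 and −1.43 in malignant pairs, against 1.32 and −1.58 in the benign pairs on which they were chosen. Over 14417 identifiers tested in both, the differences had a Pearson correlation of 0.858, across identifiers, which are not independent replicates.

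**Figure D5:**
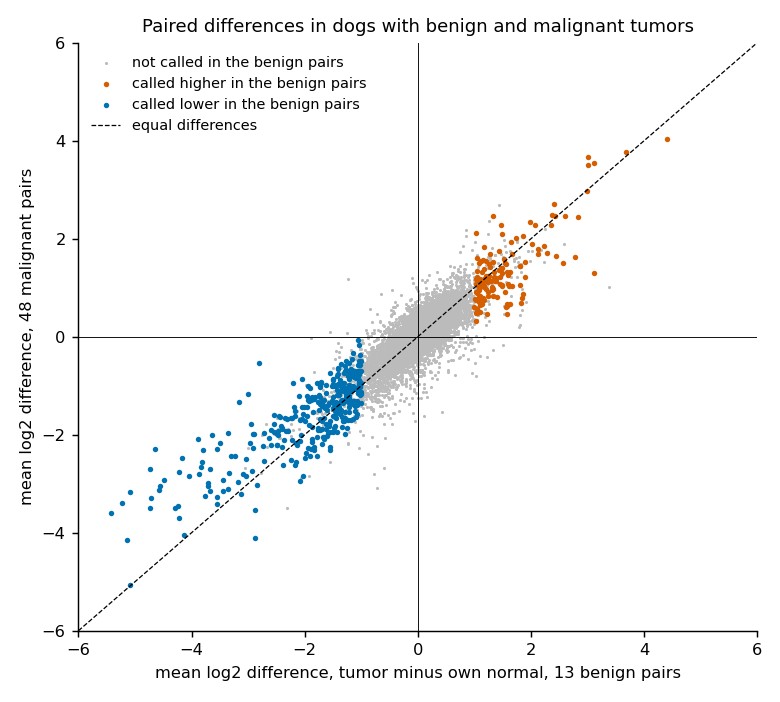
Mean log2 difference between tumor and own normal tissue in 13 benign pairs (horizontal) and in 48 malignant pairs (vertical), 1 point per identifier, with those called in the benign pairs in color and the dashed line at equal differences. All colored points lie on the same side of 0 on both axes, and many of the lower identifiers lie above the dashed line, with smaller losses in malignant pairs.

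The 22 benign tumors without own normal tissue were compared, without pairing, with the 48 normal tissues of the dogs with malignant tumors. Of the identifiers from the benign pairs, 88 of 138 were called higher (63.8%, and 30.2% of 291 called, background 1.98%) and 291 of the lower ones were called lower (84.6%, and 50.5% of 576 called, background 3.93%). The sign was the same for 138 of 138 higher identifiers and for 343, or all but 1, of the lower ones, again without a share over all identifiers. Since the normal tissues are those of the malignant pairs, the calls in malignant pairs and in these tumors share controls.

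The named identifiers were also measured in these other dogs. ENSCAFG00000007857 had a median of 96.05 FPKM in malignant tumors and 3.28 FPKM in their own normal tissue, with the tumor higher in 41 of 48 dogs, and a median of 94.4 FPKM, from 1.298 to 480.7, in the 22 benign tumors. ENSCAFG00000011534 had medians of 20.9 and 0.143 FPKM in malignant pairs, with the tumor higher in 45 of 48 dogs, and a median of 6.56 FPKM in the 22 benign tumors. Their log2 differences in malignant pairs were 3.78 ± 0.45 and 3.68 ± 0.37 (SE, n = 48; limma adjusted p = 4.2e-09 and 1.17e-10). In the 22 benign tumors the unpaired differences were 3.64 and 2.71.

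ENSCAFG00000005235 was at most 2.65 FPKM in each of the 22 benign tumors, with a median of 0.294, and ENSCAFG00000023806 was at most 4.48 FPKM, with a median of 0.0531. None of these tumors reached the levels of CMT-480. In malignant pairs the 2 identifiers had medians of 0.266 and 0.0887 FPKM in tumors and 3.47 and 3.24 FPKM in normal tissue, with the tumor lower in 38 and 45 of 48 dogs. The normal tissues of these dogs ranged from 0 to 4890.5 FPKM for the first and from 0 to 1961 FPKM for the second, so normal tissue was widely spread in both sets of dogs, but its median was lower here than the 461.8 and 81.0 FPKM of the benign pairs. The log2 differences were −3.59 ± 0.63 and −3.40 ± 0.54 (SE, n = 48; limma adjusted p = 8.08e-06 and 1.63e-06).

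Benign and malignant tumors were then compared by the difference of their paired differences, with no term for age, breed or surgery year. With 13 benign and 48 malignant pairs, 0 of 14720 identifiers (0%) were called (limma), and 681 (4.63%) had an unadjusted p under 0.05. With surgery year as a covariate, 0 were called and 925 had an unadjusted p under 0.05 (limma). For the 4 named identifiers, the benign minus malignant difference was −0.10 (95% confidence interval −1.92 to 1.72) for ENSCAFG00000007857 and −0.66 (−2.18 to 0.85) for ENSCAFG00000011534. It was −1.82 (−4.51 to 0.87) for ENSCAFG00000005235 and −1.82 (−4.22 to 0.58) for ENSCAFG00000023806. The intervals include 0 and also differences of more than a doubling. Over all identifiers the median difference was −0.077 in the deposited FPKM and −0.004 after median-of-ratios scaling.

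The size of the change per dog was the SD over identifiers of the paired log2 difference. It was 0.948 ± 0.272 (SD, n = 13) in benign pairs, from 0.488 to 1.32, and 1.05 ± 0.22 (SD, n = 48) in malignant pairs, from 0.573 to 1.499. The benign minus malignant difference of the means was −0.102 (two-sided permutation test of the group labels with 100000 resamples, p = 0.167).

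Matched by histological lineage, no identifier was called either. For 7 simple adenomas against 20 simple carcinomas, 0 of 14658 identifiers were called (0%; limma) and 794 (5.42%) had an unadjusted p under 0.05. For 4 complex adenomas against 19 complex carcinomas, 0 of 14672 were called (0%; limma) and 1116 (7.61%) had an unadjusted p under 0.05. In the latter comparison the median of all identifiers was −0.155 in the deposited FPKM and 0.011 after median-of-ratios scaling. Between simple adenomas and simple carcinomas these medians were 0.073 and −0.005. Single differences are relative to these shifts. The difference of ENSCAFG00000007857 was 1.46 (95% confidence interval −1.36 to 4.27) between simple adenomas and simple carcinomas and −2.06 (−4.44 to 0.32) between complex adenomas and complex carcinomas.

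Taken alone, neither adenoma type gave calls. In 7 simple adenomas 0 of 14484 identifiers were called (0%; limma), with 3140 (21.7%) at an unadjusted p under 0.05. Without CMT-480, the remaining 6 gave 11 calls. In 4 complex adenomas 0 of 14508 were called (0%; limma), with 982 (6.77%) at an unadjusted p under 0.05. The named identifiers were chosen on these same dogs, and their mean log2 differences are given as a description. In simple adenomas they were 3.55 and 2.42 for the gained and −6.16 and −5.43 for the lost identifiers. In complex adenomas they were 3.26 and 3.13, and −5.42 and −5.77.

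Simple and complex adenomas did not differ by any called identifier (0 of 14585, 0%; limma), and 333 (2.28%) had an unadjusted p under 0.05. Over all identifiers the median difference was 0.062 in the deposited FPKM and −0.019 after median-of-ratios scaling. The simple minus complex difference was 0.30 (95% confidence interval −2.29 to 2.88) for ENSCAFG00000007857, −0.70 (−2.78 to 1.37) for ENSCAFG00000011534, −0.74 (−6.14 to 4.67) for ENSCAFG00000005235 and 0.34 (−5.21 to 5.90) for ENSCAFG00000023806. With intervals of this width the adenoma types are not shown to be alike. Single complex adenomas also ranged widely, as CMT-091, CMT-232, CMT-272 and CMT-355 had log2 differences of 4.26, 0.64, 4.04 and 4.08 for ENSCAFG00000007857 and of −9.53, −1.06, −11.34 and −1.14 for ENSCAFG00000023806.

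The 2 benign mixed tumors were not tested on their own and are described by their values. ENSCAFG00000011534 had 21.1 FPKM in CMT-008 and 59.5 FPKM in CMT-162, both among the 3 highest of the 13 tumors. ENSCAFG00000007857 had 127.3 and 214.9 FPKM, the latter being the highest of the 13. The losses differed between both dogs, since the normal tissue of CMT-008 had only 0.384 FPKM of ENSCAFG00000005235 and 0.466 FPKM of ENSCAFG00000023806, whereas that of CMT-162 had 38.8 and 81.0 FPKM.

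Ovarian status was compared within the 13 dogs. Between 9 intact and 4 neutered dogs, 0 of 14595 paired differences were called (0%; limma), with 1002 (6.87%) at an unadjusted p under 0.05, and without CMT-776 there was 1 call. Both benign mixed tumors came from intact dogs, so neuter status and diagnosis are not fully separated here. Within simple adenomas alone, 0 of 14484 were called (limma), with 323 at an unadjusted p under 0.05. ENSCAFG00000011534 had a mean log2 difference of 3.64 in intact and 1.61 in neutered dogs, a difference of 2.03 (95% confidence interval 0.26 to 3.80; limma adjusted p = 0.705). The benign mixed tumors among the intact dogs had a mean of 4.86 for this identifier. For ENSCAFG00000007857 the means were 4.22 and 2.46, a difference of 1.77 (−0.36 to 3.89). The normal tissues of the neutered dogs CMT-017, CMT-074, CMT-232 and CMT-776 had median levels of 0.54, 1.51, 2.70 and 5.08 for the loss list, which are both the lowest and the highest of all 13 dogs, while intact dogs ranged from 2.68 to 4.74.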

How the data were processed

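RNA from tumors and adjacent normal tissue was enriched for poly(A) and sequenced on an Illumina HiSeq. Per the labels, the authors used TopHat2 2.0.9 and Cufflinks 2.1.1 on CanFam3.1 and deposited FPKM values, 1 per identifier and library (24580 identifiers). FPKM is a relative unit, so reads behind a value are unknown, and a fall of abundant transcripts raises the others. Tissue, diagnosis, neuter status and surgery year came from the labels. Malignancy had to match the study's clinical table, and mapping rates came from its sequencing table. The members and lists were chosen with earlier results of these data known.

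Identifiers averaging 0.5 FPKM or more in the libraries of a comparison were tested as log2(FPKM + 1) in limma 3.58.1 (R 4.3.3), with dog as a block and an intensity trend. A call required an adjusted p under 0.05 together with an absolute log2 difference of 1 or more. The pairs come from the same animal. After subtraction of the tissue means, both tissues of a dog correlated at −0.06 to 0.54 (median 0.17). Named identifiers were called, had a mean of at least 5 FPKM in the higher tissue and the same direction in at least 12 of 13 dogs, and the 2 with the largest difference in each direction were taken. The test of the 13 pairs, tested on simulated data with 14458 identifiers, recovered 98 of 100 changes of size 2 and 99 of 100 of size 3, with 3 false calls. In the comparisons that gave no calls it recovered 71 to 94 of 100 changes of size 2 and 88 to 100 of size 3, with 4 to 10 false calls, and fewest of size 2 in complex adenoma against complex carcinoma (71), complex adenoma alone (73) and intact against neutered dogs (77). Identifiers were simulated to vary independently. The same change was added in every dog of a group, and only to identifiers with a mean log2(FPKM + 1) above 2. These rates need not hold for changes that vary widely between dogs. In simple adenomas, ENSCAFG00000005235 had a mean log2 difference of −6.16 and was not called (limma adjusted p = 0.118). Alternatives were another pseudocount, no filter, median-of-ratios scaling, no block, covariates, single years, 3 dogs added, and each dog left out. Of 43286 RefSeq genes in the table at hand, 0 carried an Ensembl identifier, so gene names were not used here. Permutation tests were run in scipy 1.17.1 and figures drawn in matplotlib 3.10.9.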

Additional observations from a re-analysis of the deposited data

Results flagged for a closer look

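Within the 7 simple and 4 complex adenomas, 18 sets of per-dog values were searched for a dog far from the rest of its diagnosis, and 1 was found. The log2 difference of ENSCAFG00000007857 in the complex adenoma of CMT-232 was 0.64, and the nearest of the other 3 was 4.04, a gap of 0.938 of the range of the group (limit 0.829). Chance gives such a gap in about 1 of 20 sets. CMT-232 also had the fewest identifiers with a difference of at least 1 (420), a mapping rate that was lower in the tumor, and neutered status. The part of these in the value was not tested.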

How the results depend on the processing

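Among benign tumors and their own normal tissue, 3.3% of identifiers were called. This share was 5.26% with a pseudocount of 0.1, 1.73% without a filter on low values, 9.67% with the adjusted p alone, 0% with mapping rate as a covariate, 0.00696% in the dogs of 2016 and 0% in those of 2017, and 0.729% to 4.56% with a dog left out. In counts, the 482 calls became 768 with a pseudocount of 0.1, 1411 with the adjusted p alone, 343 without a filter and 602 with the 3 dogs of differing diagnosis added. Without the block that pairs both tissues of a dog they became 367 (2.51%), and after median-of-ratios scaling the share was 3.39%. Simple adenomas gave 2 calls (0.0138%) without this block, which changed no other comparison from 0, and 0% to 0.076% with a dog left out. Intact against neutered dogs gave 0% to 0.00685% with a dog left out. With a pseudocount of 0.1, calls shared with malignant pairs were 164 higher and 408 lower, and those shared with unpaired benign tumors 152 higher. More identifiers were called in each set, with backgrounds of 4.07%, 6.38% and 4.06%. As shares of the benign calls these were 64.3%, 79.5% and 59.6%, against 71.0%, 78.2% and 63.8% in the main setting. After median-of-ratios scaling, 61.0% of the higher and 80.2% of the lower calls were shared with malignant pairs. The cause of these changes was not tested. Single years leave fewer pairs, and leaving out the filter adds identifiers. Each omission of a dog from the benign pairs left the same number of pairs. The share called still ranged from 0.729% without CMT-272 to 4.56% without CMT-017. Comparisons of adenomas with each other and with carcinomas gave 0 calls under each alternative run, and the size of the change per dog kept a p above 0.05. Of 84 values for the 4 named identifiers under alternatives, 72 stayed called and 12 did not, 4 each with mapping rate and in both years, and none changed sign. These identifiers had been chosen for a shared direction in the same dogs. Without read counts, no counting error could be given for single values.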
